A study of Mus musculus with 16 samples.

Results

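The experiment compared cortex of 4 mice with a conditional knockout of Foxp1 (cKO) with cortex of 4 littermate controls, 8 of the 16 libraries of a study that also sampled hippocampus. All mice were males at postnatal day 47, and the left hemisphere was dissected, frozen and used for poly(A) RNA sequencing. The series title places the deletion in forebrain pyramidal neurons, while the Cre driver, the deleted part of Foxp1 and the genotype of the littermate controls beyond the word control are not stated in the sources used here. The libraries are named DJ3, DJ6, DJ7 and DJ8 (controls) and DJ1, DJ2, DJ4 and DJ5 (knockouts), and values per library follow that order throughout. Levels are counts per 1000000 reads (CPM), which compare a gene between libraries but not one gene with another, since they are not divided by gene length. Genes averaging 0.5 CPM or more across these libraries were tested, 13713 of 21999, and a gene was called when its adjusted p in limma was below 0.05.

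Foxp1 encodes a forkhead transcription factor that binds DNA as a dimer with itself or with Foxp2 or Foxp4, and it is known mainly as a repressor. In the forebrain it is found in projection neurons of the neocortex and of hippocampal CA1 and in the medium spiny neurons of the striatum. In people, FOXP1 variants that disable 1 copy cause intellectual disability, often with autism and impaired speech.

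Depth was 7075560 to 9037821 reads in controls and 8160441 to 9164571 in knockouts, so a single read was worth 0.109 to 0.141 CPM. For genes of at least 20 CPM, the median coefficient of variation between replicates was 6.35% in controls and 6.79% in knockouts. The main axis of variation, 35.0% of the variance, separated the genotypes. A further 17.4% parted DJ1, DJ2 and DJ3, whichever their genotype, from DJ4 to DJ8 by sign. The scores were graded, from 19.2 in DJ3 through 6.71 in DJ2 and -2.67 in DJ6 to -16.4 in DJ4. The labels give no batch, date or lane for this split. The results were therefore also computed with DJ4 to DJ8 alone. Markers of choroid plexus stood apart in 1 library of each group, at a summed 175 CPM in DJ6 and 258 CPM in DJ1 against 9.47 to 16.1 CPM in the other 6. All 12 excitatory neuron markers of cortex were present, at a summed 8080 to 8409 CPM in controls and 8695 to 9123 CPM in knockouts. In bulk tissue, fewer cells of a type and less RNA per cell cannot be told apart.

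Foxp1 itself fell to 39.9% of its control level without reaching 0. It was at 265, 298, 288 and 286 CPM in controls and 96.00, 108, 105 and 144 CPM in knockouts (log2 fold change -1.34, SE 0.09, limma adjusted p = 3.9e-08). The groups did not overlap, knockout DJ5 kept the most, and the exact permutation test, two-sided, had p = 0.0286, the smallest that 4 against 4 libraries allow. The deleted part is not given, so whether the remaining reads cover it was not tested. Foxp2, its dimer partner, was at 40.5, 45.9, 49.2 and 38.5 CPM in controls and 66.2, 51.5, 49.9 and 58.7 CPM in knockouts (log2 fold change 0.37, SE 0.10, limma adjusted p = 0.014). Its groups did not overlap, but without control DJ8 the adjusted p was 0.061, with limma. Foxp4 was at 9.23 to 10.2 CPM in controls and 10.04 to 15.4 CPM in knockouts and did not pass (log2 fold change 0.39, SE 0.14, limma adjusted p = 0.075).

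Across all genes, 1847 of 13713 were called, which is 13.5%, with 1047 higher in the knockout (7.64%) and 800 lower (5.83%). Most changes were small: the median called rise was 0.42 and the median called fall -0.40 on the log2 scale. Of the called genes, 539 (29.2%) differed by less than 0.3, 623 by 0.3 to 0.5, 569 by 0.5 to 1, and 116 by more than 1, of which 78 were higher and 38 lower. The 4 knockout and 4 control values did not overlap for 1636 of the called genes, and for 2429 of all genes tested (17.7%). The predominance of rises depended on scaling: higher genes were 56.7% of the calls on CPM as deposited, 46.6% of 1780 after median-of-ratios rescaling, 48.4% of 1792 after TMM rescaling, 49.0% of 1807 after quantile normalization and 47.5% of 1794 with edgeR on the recovered reads. The median over all genes tested was 0.03 as deposited and 0.00 after median-of-ratios rescaling.

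**Figure D1:**
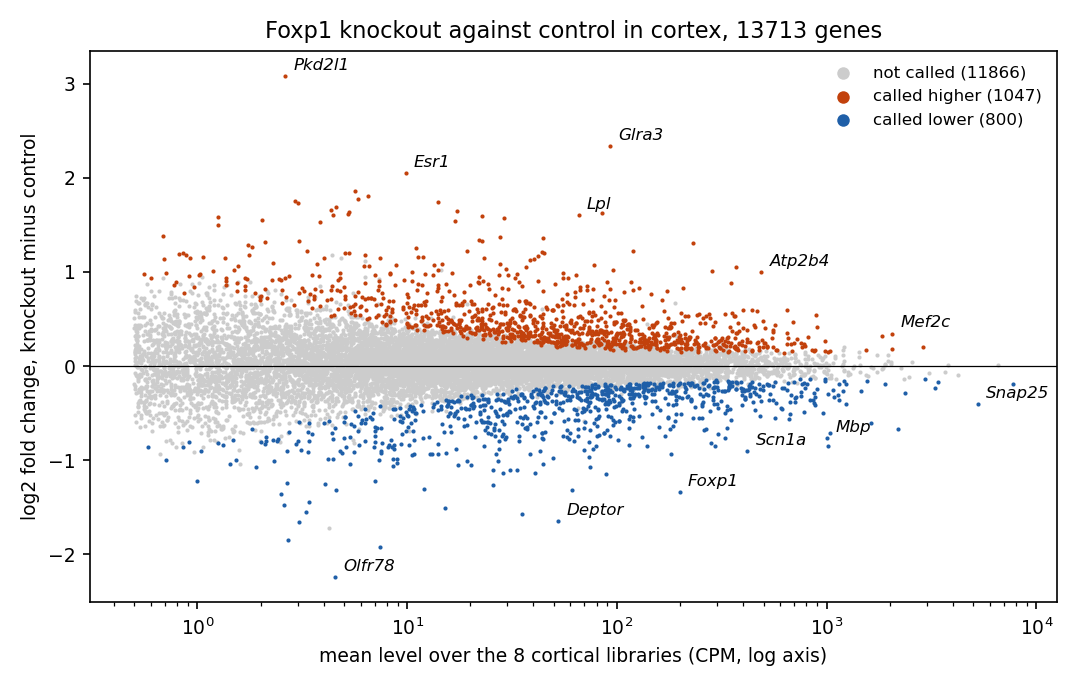
Change against level for the 13713 genes tested in cortex; the x axis is the mean level over the 8 libraries in CPM on a log axis, the y axis the log2 fold change of knockout minus control, and each point is a gene. The 1047 genes called higher and the 800 called lower lie on both sides at every level, and Foxp1 stands at -1.34.

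Calls followed the level of the gene. At 0.5 to 1 CPM, 2.66% of 713 genes were called and the smallest called change was 0.78 on the log2 scale. At 1 to 5 CPM the share was 5.02%, at 5 to 20 CPM 9.07%, at 20 to 100 CPM 16.5%, and above 100 CPM 26.0% of 2390 genes, where changes down to 0.14 were called. The spread of the fold changes went the other way, from an SD of 0.38 in the lowest bin to 0.21 in the highest, and the median standard error from 0.29 to 0.06. Among genes under 1 CPM no change smaller than 0.78 was thus called, and the smallest detectable change was not tested. Calls were also more frequent among long genes. In 5 equal bins of gene span the share called was 8.21%, 9.21%, 10.9%, 14.5% and 24.7%, the last for genes of 83.3 kb or more. Level rose with span, from a median of 9.46 CPM in the shortest bin to 46.8 CPM in the longest. Within the range of 20 to 100 CPM the shares were 15.6%, 10.9%, 10.9%, 16.1% and 29.2%, and the longest bin was again the highest. Over all levels, in that bin 363 genes rose and 309 fell, and the median change was 0.02. By chromosome the share called ran from 9.92% on chromosome 17 to 18.7% on the X, where 70 genes rose and 22 fell.

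The 12 largest rises ran from 1.64 to 3.08 on the log2 scale. They and the 12 largest falls were taken only from called genes whose groups did not overlap, so their separation was required. Pkd2l1, a polycystin cation channel, was at 0.278, 0, 0.141 and 0.111 CPM in controls and 2.99, 8.09, 3.91 and 5.46 CPM in knockouts (log2 fold change 3.08, SE 0.28, limma adjusted p = 6.5e-07). The controls held 2, 0, 1 and 1 reads of it, so the size of its fold change depends on the pseudocount, while no control value came near a knockout value. Glra3, the alpha3 subunit of the inhibitory glycine receptor, was at 27.3, 27.2, 35.2 and 32.4 CPM in controls and 156, 157, 161 and 147 CPM in knockouts (log2 fold change 2.34, SE 0.08, limma adjusted p = 6.6e-12), the smallest p of all genes tested. Its 4 knockout values lay close together and far above any control. Esr1, the estrogen receptor alpha, was at 2.64, 3.54, 3.82 and 4.11 CPM in controls and 13.9, 15.2, 17.7 and 17.7 CPM in knockouts (log2 fold change 2.05, SE 0.15, limma adjusted p = 7.3e-08). Qrfpr, a receptor for the neuropeptide QRFP, was at 1.39, 2.32, 2.26 and 2.78 CPM in controls and 8.85, 8.70, 8.66 and 10.3 CPM in knockouts (log2 fold change 1.86, SE 0.18, limma adjusted p = 1.6e-06). For both genes every knockout library lay above every control, as that rule required. Cdhr1, a cadherin best known from photoreceptors, rose by 1.80, Grp, the gastrin-releasing peptide, by 1.77, and Slc22a3, an organic cation transporter, by 1.73 (limma, adjusted p = 9.1e-07, 1.6e-06 and 0.00023). Adgrg2, an adhesion G protein-coupled receptor, Alox12b, a lipoxygenase, and Glp2r, the receptor of glucagon-like peptide 2, rose by 1.66 to 1.75 on the log2 scale. Syndig1l and Sh3rf2 completed the 12 largest rises at 1.65 and 1.64. Syndig1l is itself a striatal marker and was at 2.78, 13.3, 16.7 and 4.78 CPM in controls and 24.99, 21.4, 19.4 and 34.9 CPM in knockouts, uneven within both groups. With the striatal level of each library as a covariate, Syndig1l was at 0.21 and Sh3rf2 at 0.54, and neither passed (limma, adjusted p = 0.62 and 0.31). That level is the mean of the striatal markers, Syndig1l included, so the loss of the Syndig1l call was in part built in.

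The 12 largest falls, Foxp1 itself among them, ran from -1.34 to -2.24. Deptor, an inhibitor of the kinase mTOR and a marker of layer 5, was at 81.3, 86.4, 75.3 and 76.5 CPM in controls and 24.9, 24.1, 25.8 and 25.6 CPM in knockouts (log2 fold change -1.65, SE 0.07, limma adjusted p = 1.7e-10). Its 4 knockout values spanned 24.1 to 25.8 CPM, far below every control. Kcnab3, an auxiliary subunit of voltage-gated potassium channels, was at 42.7, 60.5, 54.1 and 55.5 CPM in controls and 16.9, 18.5, 17.6 and 16.9 CPM in knockouts (log2 fold change -1.57, SE 0.10, limma adjusted p = 1.7e-08). Olfr78, an olfactory receptor gene, was at 7.66, 8.52, 8.34 and 6.34 CPM in controls and 1.44, 1.47, 1.71 and 0.546 CPM in knockouts (log2 fold change -2.24, SE 0.23, limma adjusted p = 2.2e-06). Myl4, a myosin light chain of atrial and embryonic muscle, was at 13.5, 12.4, 9.75 and 12.2 CPM in controls and 2.88, 3.31, 2.68 and 2.29 CPM in knockouts (log2 fold change -1.92, SE 0.16, limma adjusted p = 2.3e-07). None of these had overlapping groups, which the rule that chose them required. Apart from Foxp1, the others among the 12 largest falls were at 3.84 to 22.6 CPM in controls and fell by 1.36 to 1.84. They were Hsbp1l1, Rxfp2 (a relaxin family receptor), Kcng4 (a modulatory potassium channel subunit), Prr16 and Ky (a muscle peptidase). Vgll3 (a cofactor of TEAD transcription factors) and Sptssb (a subunit of serine palmitoyltransferase, which starts sphingolipid synthesis) were also among them.

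**Figure D2:**
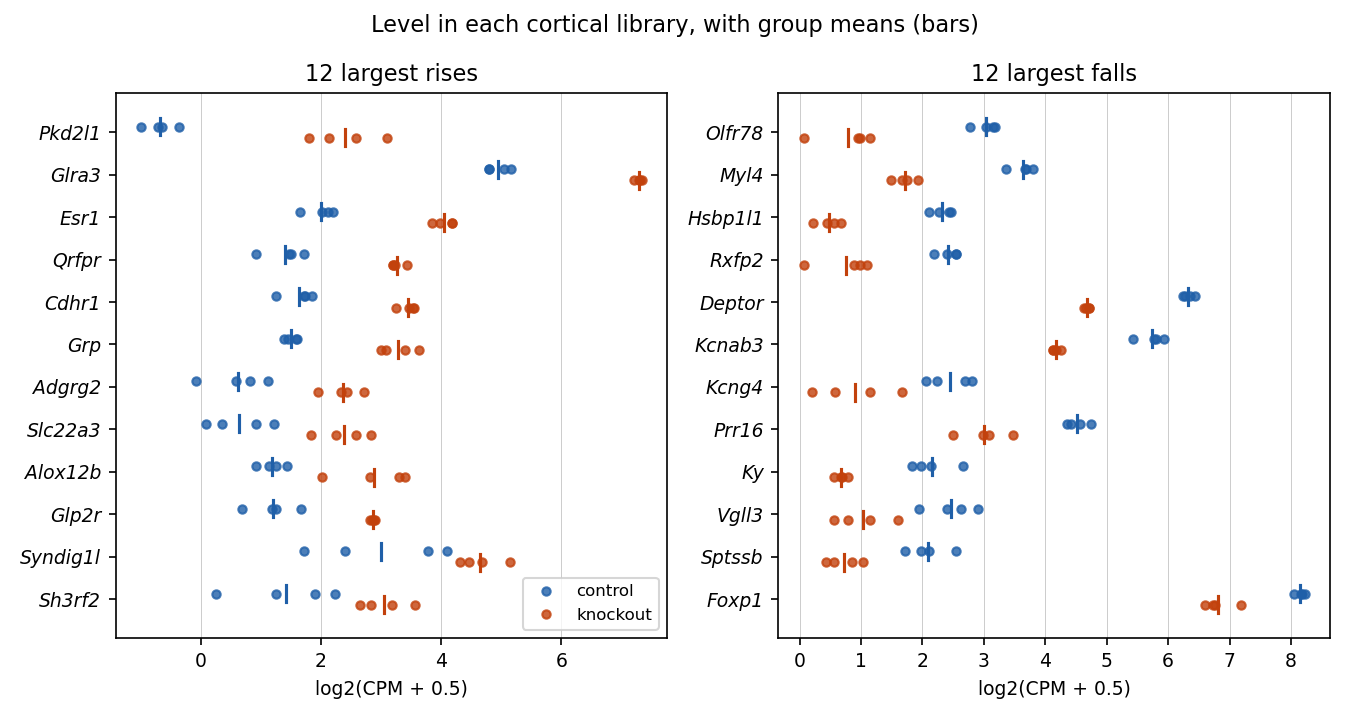
Level of the 12 genes with the largest rises and the 12 with the largest falls in each cortical library, as log2(CPM + 0.5) on the x axis; points are libraries, blue for controls and orange for knockouts, and bars are group means. The groups do not overlap for any of these genes, which the rule that chose them required.

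By change in CPM, abundant genes led, again taken only from called genes whose groups did not overlap. Snap25, a SNARE protein of synaptic vesicle fusion, was at 5909, 5989.7, 5902 and 6163 CPM in controls and 4636, 4579, 4478 and 4401 CPM in knockouts (log2 fold change -0.41, SE 0.04, limma adjusted p = 2.7e-06). Rapgef4, a cAMP-activated exchange factor also known as Epac2, was at 1479, 1220.1, 1202 and 1235 CPM in controls and 773, 811, 718 and 822 CPM in knockouts (log2 fold change -0.71, SE 0.06, limma adjusted p = 5.6e-07). Every knockout value of both lay below every control. Slc24a2, a sodium, calcium and potassium exchanger, fell by 0.60 and Glul, the glutamine synthetase of astrocytes, by 0.29 on the log2 scale (limma, adjusted p = 9.4e-06 and 0.0022). The glutamate transporter gene Slc1a2 fell by 0.19 but its adjusted p was 0.060 without knockout DJ4, with limma. Upward, Atp2b4, a calcium pump of the plasma membrane, was at 334, 299, 342 and 324 CPM in controls and 635, 622, 708 and 635 CPM in knockouts (log2 fold change 1.00, SE 0.05, limma adjusted p = 3.7e-09). Mef2c, a transcription factor of excitatory neurons, was at 1690.4, 1819.9, 1795 and 1943 CPM in controls and 2433, 2436, 2234 and 2110.1 CPM in knockouts (log2 fold change 0.34, SE 0.05, limma adjusted p = 0.00028). Gucy1a3, the alpha subunit of soluble guanylyl cyclase, was at 248, 218, 249 and 246 CPM in controls and 555, 517, 457 and 471 CPM in knockouts (log2 fold change 1.05, SE 0.06, limma adjusted p = 1.1e-08). By the rule that chose them, none of these overlapped between groups. Arpp21, a phosphoprotein regulated by cAMP, rose by 0.54, and Ddn, encoding the dendritic protein dendrin, by 0.60 (limma, adjusted p = 9.2e-07 and 3.3e-06). Enc1, at 0.42, passed as well, and the rises of Gpm6a and Cplx2, at 0.20 and 0.18, had adjusted p of 0.055 and 0.056 without control DJ6, with limma.

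Genes outside the 60 lists made up most of the calls. Of 10980 unlisted genes 1336 were called (12.2%), 753 higher and 583 lower, and of 2733 listed genes 511 (18.7%), 294 higher and 217 lower. The unlisted genes named here are among the 20 with the smallest p, chosen after their values were seen. Itga4, the integrin alpha4 subunit, was at 44.8, 35.6, 42.96 and 41.9 CPM in controls and 140.01, 142, 118 and 114 CPM in knockouts (log2 fold change 1.62, SE 0.09, limma adjusted p = 2.7e-09). Gfra2, a receptor for neurturin, was at 95.8, 88.1, 85.9 and 79.5 CPM in controls and 32.8, 31.9, 38.4 and 35.8 CPM in knockouts (log2 fold change -1.32, SE 0.08, limma adjusted p = 1.1e-08). Both pairs of groups lay well apart. Nov, a secreted matricellular protein, was at 146, 108, 145 and 128 CPM in controls and 381, 339, 299 and 289 CPM in knockouts (log2 fold change 1.31, SE 0.09, limma adjusted p = 5.3e-08). Of the sortilin family of sorting receptors, Sorcs3 rose by 0.82 and Sorcs1 fell by 0.81 (limma, adjusted p = 5.6e-08 and 1.5e-07). Abcd2, a peroxisomal fatty acid transporter, fell by 0.84 and Aldh1a1, an enzyme of retinoic acid synthesis, by 1.10. Cpne6, a calcium-binding copine of neurons, rose by 1.21 and the transcription factor Rfx3 by 0.80. Each of these kept an adjusted p below 0.05 whichever library was left out.

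The markers of cortical layers moved in opposite directions by layer, as the plot of cell type lists by library shows. Of 14 markers of layer 2/3, 9 were higher and none lower, with a median of 0.36 against 0.03 over all genes, of which 13.5% were called. The medians and shares called of the lists that follow are to be read against these 2 values. Of 10 markers of layer 4, 1 was higher and 7 lower (median -0.64), of 20 of layer 5, 3 were higher and 8 lower (median -0.22), and of 9 of layer 6b, 4 were higher and none lower (median 0.51). The lower count of layer 4 was 4 without control DJ6 or without control DJ8. Layer 6 gave 3 higher and 1 lower of 15 (median 0.22), 1 higher and none lower without control DJ7, and none of either without control DJ8. With DJ4 to DJ8 alone its median was 0.04, with 1 higher and 1 lower. The same values came with the striatal level as a covariate. In hippocampus the layer 6b and layer 6 lists had medians of 0.47 and 0.42, so medians of this size were not particular to cortex. Of their members 1 of 9 and 0 of 15 were called in that region. There the medians of layers 2/3, 4 and 5 were 0.16, 0.15 and 0.12. In layer 2/3, Wfs1, a membrane protein of the endoplasmic reticulum, was at 25.9, 25.8, 23.9 and 26.4 CPM in controls and 57.4, 57.8, 66.02 and 51.8 CPM in knockouts (log2 fold change 1.17, SE 0.08, limma adjusted p = 5.0e-08). Calb1, the calcium buffer calbindin, was at 235, 235, 252 and 261 CPM in controls and 517, 466, 431 and 411 CPM in knockouts (log2 fold change 0.89, SE 0.06, limma adjusted p = 6.5e-08). Lamp5 and the homeobox gene Cux2 rose by 0.54 and 0.40, and Mdga1, Otof, Lhx2 and Rasgrf2 rose by 0.31 to 1.03. Rorb, the nuclear receptor that marks layer 4, was at 231, 228, 222 and 272 CPM in controls and 123, 128, 114 and 134 CPM in knockouts (log2 fold change -0.93, SE 0.07, limma adjusted p = 6.7e-08). No library of one group reached the other for Wfs1, Calb1 or Rorb. Whrn and Plcxd2 fell with Rorb, by 0.93 and 0.67, and Rspo1, the exception, rose by 0.81. In layer 5, Deptor fell together with Nefh, the heavy neurofilament, and Sulf2, an editor of heparan sulfate, at -1.07 and -0.88. Etv1, Pcp4 and S100b fell too, at -0.26 to -0.39, and S100b is also counted among the lower astrocyte markers below. Qrfpr and Colgalt2 rose, by 1.86 and 0.63. For layer 6b, Nr4a2, a nuclear receptor also induced by activity, was at 64.7, 55.5, 83.8 and 82.6 CPM in controls and 218, 169, 133 and 152 CPM in knockouts (log2 fold change 1.22, SE 0.13, limma adjusted p = 5.4e-06). Its lowest knockout value was 133 CPM and its highest control 83.8 CPM. Drd1, which is also a striatal marker, Moxd1 and Inpp4b rose as well, by 0.51 to 0.91. Of genes shared by excitatory neurons of all layers, Slc17a7, the vesicular glutamate transporter, at -0.08, and the kinase gene Camk2a, at 0.05, did not pass.

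**Figure D3:**
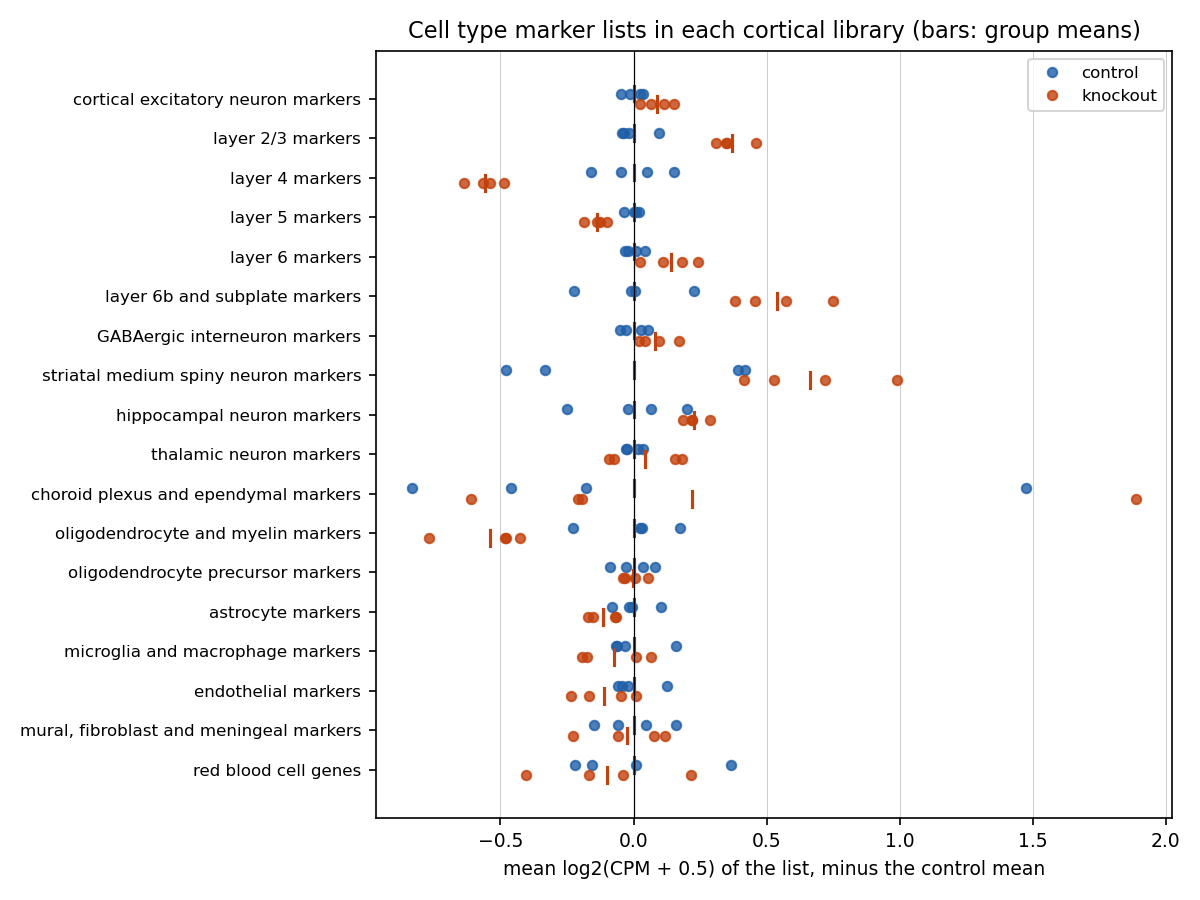
Cell type marker lists in each cortical library; the x axis gives the list's average log2(CPM + 0.5) minus its control mean, points are libraries and bars are group means. The layer 2/3, layer 4, layer 5, layer 6b and myelin lists have no overlap between groups, the striatal list spreads widely within controls, and DJ1 and DJ6 stand apart for choroid plexus.

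Genes of myelin were lower in every knockout library. Of 22 tested markers of oligodendrocytes and myelin, 15 were lower and none higher, with a median of -0.60 on the log2 scale. Their summed level was 5870 to 7931 CPM in controls and 3622 to 4855 CPM in knockouts. Mbp, myelin basic protein, was at 1301, 1309, 1389 and 1066 CPM in controls and 811, 771, 632 and 762 CPM in knockouts (log2 fold change -0.77, SE 0.08, limma adjusted p = 2.9e-06). Its groups were separate, with DJ4 the lowest knockout. Mobp, Mal, Ermn and Aspa, all known from mature oligodendrocytes, fell by 0.76 to 0.93. Sox10, the lineage's transcription factor, was at 0.02 and did not pass, and of 13 markers of oligodendrocyte precursors 3 were higher and 1 lower (median -0.06). With each library's myelin level as a covariate, layer 2/3 gave 3 higher, layer 4 gave 3 lower and layer 6b 2 higher. No astrocyte or myelin marker was lower. The covariate is the mean of the myelin markers themselves, so their own loss of calls was largely built in. In that fit 253 genes were called in all of cortex, 237 of them also called without it, and 1825 of the 1847 kept their sign. Potassium channels gave none higher and 7 lower in it, synaptic adhesion genes 3 higher and 2 lower, and neuropeptides and their receptors 4 higher and none lower. The myelin levels of the groups do not overlap, so myelin level and genotype cannot be told apart in these libraries.

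Among the remaining cell types, astrocyte markers gave 1 higher and 7 lower of 21 (median -0.14), with 4 lower without knockout DJ4 and 2 lower with the striatal level, given below, as a covariate. Kcnj10, the inward rectifier potassium channel of astrocytes, was at 421, 386, 346 and 349 CPM in controls and 189, 220.1, 213 and 210.3 CPM in knockouts (log2 fold change -0.85, SE 0.07, limma adjusted p = 1.2e-07). Gjb6 and Itih3, both astrocyte genes, fell by 0.59 and 0.64, while Gfap, Aqp4 and Aldh1l1, at -0.13, 0.00 and -0.21, did not pass. Of 22 markers of microglia none was called (median -0.06), with a range of -0.26 to 0.12. Endothelial markers gave 3 lower of 18 (16.7%, median -0.09), with the glucose transporter Slc2a1 at -0.59, and mural and meningeal markers 2 lower of 18 (11.1%, median 0.00). Both shares are near the 13.5% of all genes. Without control DJ3, 2 endothelial markers were higher, and the mural count of lower genes was 1 without control DJ3, control DJ8 or knockout DJ1. Of 34 markers of GABAergic interneurons 4 were higher and 3 lower (20.6%, median 0.10), and 2 higher and 5 lower with DJ4 to DJ8 alone. Pvalb, the parvalbumin of fast-spiking interneurons, was at 43.4, 43.6, 39.9 and 42.3 CPM in controls and 21.8, 18.9, 17.5 and 19.97 CPM in knockouts (log2 fold change -1.10, SE 0.09, limma adjusted p = 1.6e-07). All 4 knockout values lay close together below all controls. Reln, Crh and Ndnf rose, by 0.46 to 0.71, and Gad1 and Satb1 fell, while Sst and Vip, at 0.10 and 0.22, did not pass.

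Striatal genes were higher in the knockout and uneven within controls. Of 22 tested markers of striatal medium spiny neurons 11 were higher and none lower, with a median of 0.65. Their summed level was 461, 865, 875 and 579 CPM in the controls and 1137, 970, 946 and 1407 CPM in the knockouts. The sums do not overlap, but controls DJ6 and DJ7 lay nearer to knockouts DJ2 and DJ4 than to controls DJ3 and DJ8, and the mean log2 levels did overlap. The count was 7 without control DJ3, control DJ8, knockout DJ1 or knockout DJ5. Penk, the precursor of enkephalin, was at 34.9, 62.6, 63.7 and 40.3 CPM in controls and 112, 87.99, 82.7 and 137 CPM in knockouts (log2 fold change 1.07, SE 0.17, limma adjusted p = 0.00031). For it, controls DJ6 and DJ7 were high and knockout DJ5 the highest, as in the sum. With the striatal level as a covariate, 963 genes were called in cortex, 902 of them among the 1847, and 1843 of the 1847 kept their sign. Of the striatal markers 1 was called, but the covariate is their own mean, so that count was largely built in. In that fit potassium channels gave 6 higher and 10 lower, vesicle release genes 4 and 6, synaptic adhesion genes 10 and 7, layer 5 markers 1 and 5, axon guidance genes 5 and 3, and matrix genes 8 and 5. The part of striatal RNA in the other results was not tested beyond this. In hippocampus the striatal markers had a median of 0.55, with 0 of 22 called.

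Ion channel subunits were called in both directions. Of 73 potassium channel subunits 18 were lower and 10 higher (38.4%, median -0.14), and of 14 sodium and HCN channel subunits 6 were lower and 3 higher (64.3%, median -0.16). Scn1a, a sodium channel of axons and interneurons, was at 465, 580.1, 564 and 581 CPM in controls and 283, 297, 289 and 293 CPM in knockouts (log2 fold change -0.91, SE 0.06, limma adjusted p = 4.5e-08). Its groups were separate. Scn8a fell by 0.24 and Kcna1, Kcna2 and Kcnc1 by 0.31 to 0.74. Upward, Scn3b, an auxiliary sodium channel subunit, was at 108, 106, 117 and 99.3 CPM in controls and 171, 171, 207 and 184 CPM in knockouts (log2 fold change 0.76, SE 0.07, limma adjusted p = 6.7e-07). Scn3a rose by 0.41, and Kcng3 and Kcng1 by 0.73 and 0.66. Of 23 calcium channel subunits 7 were higher and 5 lower (52.2%, median 0.11): Cacna1i, a low-threshold channel, fell by 0.71 and Cacnb4 by 0.41, while Cacng4 rose by 0.65 and Cacna1c by 0.40. Calcium channels gave 2 higher and 2 lower with the striatal covariate. Of 24 TRP, polycystin and piezo channels 5 were higher and 2 lower (median -0.03), the latter 1 without control DJ6, and with DJ4 to DJ8 alone 3 were higher and 4 lower. Trpc6 and Pkd1l3 rose by 0.87 and 1.15.

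Transmitter receptors changed subunit by subunit. Of 17 AMPA, NMDA and kainate receptor subunits 5 were higher and none lower (29.4%, median 0.08), and 2 higher with the striatal covariate. Grin3a, an NMDA receptor subunit, was at 60.7, 53.7, 63.03 and 59.4 CPM in controls and 86.5, 85.04, 95.9 and 85.1 CPM in knockouts (log2 fold change 0.57, SE 0.07, limma adjusted p = 1.5e-05). Gria3, an AMPA receptor subunit, was at 576, 545, 588 and 560.5 CPM in controls and 706, 756, 708 and 715 CPM in knockouts (log2 fold change 0.35, SE 0.05, limma adjusted p = 3.8e-05). Both groups of each were separate, and Gria1 and Grin2b rose by 0.24 and 0.31. Grik2 passed too, but its adjusted p was 0.053 without control DJ8, with limma. Among metabotropic glutamate receptors Grm5 rose by 0.40, whereas Grm2, a presynaptic receptor, was at 20.7, 14.2, 16.96 and 17.5 CPM in controls and 7.41, 8.09, 7.32 and 4.47 CPM in knockouts (log2 fold change -1.30, SE 0.17, limma adjusted p = 2.8e-05). Of 18 GABA and glycine receptor subunits 4 were higher and 4 lower (44.4%, median 0.13). Gabra5, the extrasynaptic alpha5 subunit, was at 99.8, 97.6, 101 and 102 CPM in controls and 63.7, 58.8, 56.7 and 60.1 CPM in knockouts (log2 fold change -0.74, SE 0.06, limma adjusted p = 2.1e-07), and Gabra2 at 229, 205, 223 and 223 CPM in controls and 315, 287, 312 and 297 CPM in knockouts (log2 fold change 0.46, SE 0.05, limma adjusted p = 9.0e-06). Glrb fell by 0.25. Of 40 monoamine, acetylcholine and purine receptors 9 were higher and 10 lower (47.5%, median -0.02), and 3 and 6 with the striatal covariate. Htr2c, a serotonin receptor, was at 21.99, 26.3, 36.2 and 24.02 CPM in controls and 75.4, 63.2, 56.4 and 54.99 CPM in knockouts (log2 fold change 1.20, SE 0.13, limma adjusted p = 4.4e-06). Adora1, the adenosine A1 receptor, was at 282, 298, 317 and 308 CPM in controls and 188, 213, 205 and 219.7 CPM in knockouts (log2 fold change -0.55, SE 0.06, limma adjusted p = 3.7e-06). Htr7 and Adra2a rose by 0.79 and 0.83, and Adra1b, Htr1f, Htr2a and Chrm2 fell by 0.60 to 0.95.

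Neuropeptides and their receptors gave 18 higher and 3 lower of 45 (46.7%, median 0.22). The lower count was 1 without control DJ6, control DJ8 or knockout DJ5, and the counts were 11 higher and 1 lower with the striatal covariate. Bdnf, a neurotrophin counted in this list and among activity-regulated genes, was at 55.5, 54.2, 49.04 and 57.6 CPM in controls and 75.4, 68.99, 87.5 and 83.4 CPM in knockouts (log2 fold change 0.54, SE 0.08, limma adjusted p = 0.00014). Cckbr, the cholecystokinin B receptor, was at 51.1, 44.7, 37.5 and 41.6 CPM in controls and 66.1, 66.7, 68.1 and 60.2 CPM in knockouts (log2 fold change 0.58, SE 0.09, limma adjusted p = 0.00014). Oprk1, the kappa opioid receptor, was at 19.1, 23.7, 31.8 and 26.4 CPM in controls and 45.8, 44.7, 39.7 and 51.2 CPM in knockouts (log2 fold change 0.85, SE 0.12, limma adjusted p = 0.00011). In all of these the lowest knockout exceeded the highest control. Npy2r, Adcyap1 and Vgf rose by 0.39 to 0.79, Chga, a chromogranin of secretory granules, fell by 0.54, and Cck and Npy, at -0.16 and -0.18, did not pass. Penk, Tac1, Drd1 and Drd2 of the peptide and receptor lists are also striatal markers. Of 43 RGS and G protein genes 11 were higher and 2 lower (30.2%, median 0.14), and 7 and 1 with the striatal covariate. Rgs2, which ends signalling by G proteins and responds to activity, was at 41.2, 45.9, 45.4 and 45.6 CPM in controls and 77.3, 67.8, 71.03 and 70.5 CPM in knockouts (log2 fold change 0.68, SE 0.07, limma adjusted p = 2.6e-06), and Gnb4 at 42.04, 40.7, 49.2 and 38.8 CPM in controls and 108, 86.1, 67.4 and 77.04 CPM in knockouts (log2 fold change 0.96, SE 0.11, limma adjusted p = 1.2e-05). Among cyclases, phosphodiesterases and diacylglycerol kinases, Gucy1b3, the partner of Gucy1a3, rose by 0.46, Pde2a by 0.56 and Dgkg by 0.87, in a list with 10 higher and 8 lower of 61 (29.5%, median 0.03), and 6 and 4 with the striatal covariate.

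Of 38 activity-regulated genes 10 were higher and none lower (26.3%, median 0.27). Plk2, a kinase induced by synaptic activity, was at 175, 183, 178 and 177 CPM in controls and 264, 245, 272 and 249.7 CPM in knockouts (log2 fold change 0.53, SE 0.05, limma adjusted p = 1.5e-06). Egr2, an early response transcription factor, was at 14.1, 3.65, 5.09 and 3.56 CPM in controls and 34.3, 23.4, 15.3 and 12.4 CPM in knockouts (log2 fold change 1.74, SE 0.34, limma adjusted p = 0.0016). Control DJ3 exceeded knockout DJ5, so the groups overlap for Egr2 and not for Plk2. Dusp4, Ptgs2 and Nr4a3 rose by 0.67 to 1.07. The classical early genes Fos, Egr1 and Arc, at 0.52, 0.05 and -0.59, did not pass. This depended on the test. The authors' deposited gene list for cortex, described below, has Fos as higher, at 0.61, and Arc as lower, at -0.51. Of the same list of activity-regulated genes, it also has Btg2, Cyr61 and Junb as higher, at 1.27, 1.08 and 0.68, which were not called here. Levels of this list also differed within groups, DJ3 being the highest control, at 0.30 above the control mean on the log2 scale, and DJ1 the highest knockout, at 0.72. With DJ4 to DJ8 alone 12 were higher and 2 lower, and 2 were lower without knockout DJ1.

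Synaptic genes were called in both directions. Of 42 genes of vesicle release 9 were higher and 11 lower (median 0.01), of 35 postsynaptic scaffold and kinase genes 6 were higher and 7 lower (median 0.05), and of 54 synaptic adhesion genes 16 were higher and 10 lower (median 0.13). The shares called were 47.6%, 37.1% and 48.1%. With DJ4 to DJ8 alone the postsynaptic list gave 15 higher and 10 lower, and with the striatal covariate 3 and 4. Vamp1, a vesicle SNARE, was at 86.6, 94.5, 88.8 and 93.6 CPM in controls and 50.98, 45.8, 47.6 and 50.1 CPM in knockouts (log2 fold change -0.90, SE 0.06, limma adjusted p = 5.6e-08). Doc2b, a calcium sensor of vesicle fusion, was at 14.2, 12.3, 12.7 and 11.8 CPM in controls and 28.9, 29.8, 36.98 and 35.7 CPM in knockouts (log2 fold change 1.33, SE 0.11, limma adjusted p = 1.8e-07). The groups of both were separate, in opposite directions. Syt2 and Cplx1 fell by 1.04 and 0.55, like Snap25, while Syt17 rose by 0.98 and the panneuronal Syt1, Syp and Vamp2, at -0.08, 0.07 and 0.01, did not pass. Camk2d, a delta isoform of the calcium and calmodulin-dependent kinase, was at 155, 131, 153 and 158 CPM in controls and 279, 265, 269.7 and 247 CPM in knockouts (log2 fold change 0.83, SE 0.06, limma adjusted p = 8.7e-08), whereas Camk2g, the gamma isoform, and Camk4 fell by 0.51 and 0.49. Among adhesion genes Lrrtm4, a postsynaptic ligand of neurexins, was at 54.3, 46.7, 50.3 and 52.8 CPM in controls and 105, 92.4, 87.01 and 85.8 CPM in knockouts (log2 fold change 0.85, SE 0.08, limma adjusted p = 5.6e-07). Cbln1 rose by 0.74 while its relative Cbln2 fell by 0.74, and Nlgn1 and Nlgn3 rose by 0.31 and 0.35. Of 68 axon guidance genes 11 were higher and 8 lower (27.9%, median 0.06), the former 7 without control DJ6 or knockout DJ2 and 6 without control DJ8. Sema3a, a secreted repellent, was at 74.1, 81.1, 80.4 and 89.6 CPM in controls and 156, 167, 136 and 146 CPM in knockouts (log2 fold change 0.89, SE 0.07, limma adjusted p = 1.9e-07), and Nrp2, a semaphorin receptor, rose by 0.90, while Sema7a fell by 0.75. Pcdh8 and Pcdh19 rose by 1.22 and 0.74 and Pcdh7 fell by 0.57, in 89 cadherins and protocadherins with 11 higher and 7 lower (20.2%, median 0.07), and 7 and 5 with the striatal covariate. Of 101 matrix genes 15 were higher and 8 lower (22.8%, median 0.05), the latter 5 without control DJ6 or knockout DJ2: Col5a1 rose by 1.03, and Hapln4, a link protein of perineuronal nets, fell by 0.84.

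All 4 neurofilament genes tested were lower. Nefm, the medium neurofilament, was at 332, 396, 329 and 373 CPM in controls and 207, 190.1, 208 and 204 CPM in knockouts (log2 fold change -0.82, SE 0.06, limma adjusted p = 8.6e-08), and Nefl, Nefh and Ina fell by 0.35 to 1.07. In the same list of 26 cytoskeletal genes, with 6 higher and 6 lower (46.2%, median 0.00), Gap43, a protein of growing axons, was at 179, 134, 165 and 149 CPM in controls and 249.5, 215, 199 and 199.7 CPM in knockouts (log2 fold change 0.46, SE 0.08, limma adjusted p = 0.00098). Marcks and Dpysl3 rose by 0.59 and 0.42, and Sox11, a transcription factor of immature neurons, was at 58.3, 56.5, 60.1 and 55.4 CPM in controls and 82.2, 92.6, 109 and 93.7 CPM in knockouts (log2 fold change 0.70, SE 0.08, limma adjusted p = 5.4e-06). Dcx, which marks immature neurons too, was at 0.10 and did not pass. Apart from Dcx, none of the genes named here overlapped between groups.

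**Figure D4:**
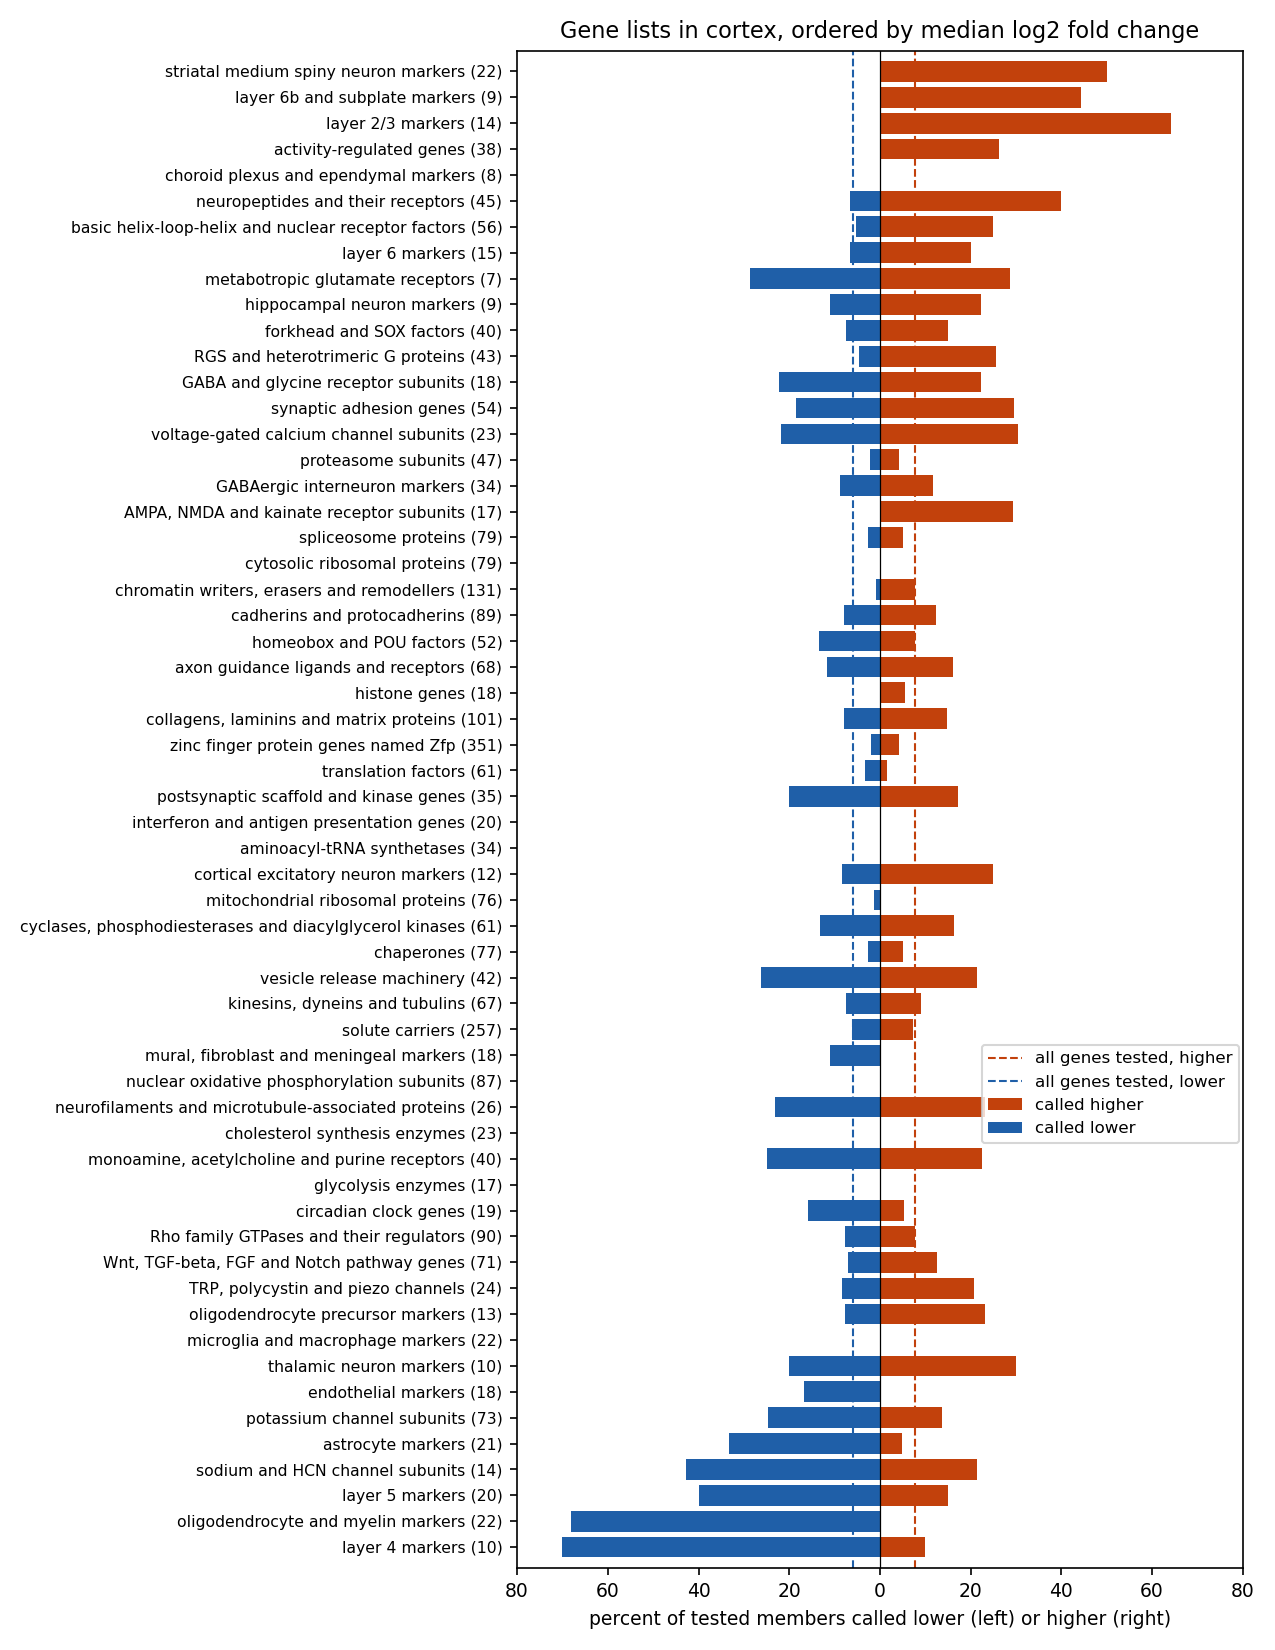
Share of tested members called lower (left, blue) and higher (right, orange) for each gene list with at least 7 tested members, whose number stands in parentheses; lists are ordered by median log2 fold change. Dashed lines mark the shares over all genes tested, 5.83% lower and 7.64% higher. Layer 4 and myelin stand at the bottom, striatal, layer 6b and layer 2/3 markers at the top, and the housekeeping lists lie within the dashed lines.

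Transcription factors were called in both directions. Of 56 basic helix-loop-helix and nuclear receptor genes 14 were higher and 3 lower (median 0.22), of 52 homeobox and POU genes 4 were higher and 7 lower (median 0.06), and of 40 forkhead and SOX genes 6 were higher and 3 lower (median 0.15). The shares called were 30.4%, 21.2% and 22.5%. The homeobox list gave 7 higher and 6 lower without control DJ3, and its lower count was 4 without control DJ8 or knockout DJ4. In turn the forkhead and SOX count of higher genes was 10 without control DJ3, 2 without control DJ8 and 3 without knockout DJ1. With the striatal covariate 4 homeobox genes were lower and 3 forkhead and SOX genes higher. Bhlhe22, a factor of projection neuron identity, was at 61.1, 55.3, 68.3 and 66.8 CPM in controls and 133, 118, 136 and 124 CPM in knockouts (log2 fold change 1.02, SE 0.07, limma adjusted p = 5.4e-08). Esrrg, an orphan nuclear receptor, was at 65.3, 75.8, 63.03 and 73.3 CPM in controls and 40.04, 40.6, 44.5 and 40.05 CPM in knockouts (log2 fold change -0.74, SE 0.08, limma adjusted p = 2.9e-06). Pou3f1 fell by 0.75. Of the other forkhead genes, Foxn3 and Foxo3 fell by 0.61 and 0.28. Signalling genes of the Wnt, TGF-beta, FGF and Notch pathways gave 9 higher and 5 lower of 71 (19.7%, median -0.03), 7 and 8 with DJ4 to DJ8 alone, and 5 and 4 with the striatal covariate. Fst, the secreted activin inhibitor follistatin, was at 7.24, 9.85, 13.7 and 14.8 CPM in controls and 31.6, 35.7, 37.5 and 31.97 CPM in knockouts (log2 fold change 1.59, SE 0.16, limma adjusted p = 2.9e-06). Bmp2, a ligand of the TGF-beta family, was at 11.8, 11.3, 11.6 and 12.5 CPM in controls and 5.53, 5.15, 5.25 and 5.56 CPM in knockouts (log2 fold change -1.07, SE 0.13, limma adjusted p = 1.3e-05). Both had separate groups.

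Housekeeping genes were rarely called. In 10 lists of ribosomal, mitochondrial, proteasome, translation, splicing, chaperone, glycolysis and cholesterol genes, 19 of 580 members passed, 11 higher and 8 lower, which is 3.28%, and the list medians ran from -0.02 to 0.10. None of 79 cytosolic ribosomal proteins, 87 oxidative phosphorylation subunits, 34 tRNA synthetases, 17 glycolysis enzymes or 23 cholesterol enzymes was called with limma. At an unadjusted p below 0.05 these lists held 7, 3, 4, 1 and 2 genes. Ribosomal protein genes have many near-identical pseudogene copies, so their levels here, such as 10.7 to 11.6 CPM for Rpl10a in controls, are uncertain. Zinc finger genes named Zfp gave 15 higher and 7 lower of 351 (6.27%, median 0.05), the former 8 without control DJ7 and 9 without control DJ8, and chromatin genes 10 higher and 1 lower of 131 (8.40%, median 0.07), among them Smarca2, a remodelling ATPase, at 0.48. The chromatin count of higher genes was 16 without control DJ3 and 6 without control DJ8 or knockout DJ2, and 6 with the striatal covariate, which gave 5 higher and 2 lower Zfp genes. With DJ4 to DJ8 alone 9 chaperone genes were higher, against 4 in all libraries.

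Promoters were searched for forkhead sequences in the 250 bases before each start site in RefSeq's GRCm38.p6 table, where 10858 of the 13713 genes matched by symbol, with 14013 start sites. TGTTTAC, read on both strands, was in 2.14% of all these promoters, in 2.01% of those of genes called higher and in 1.73% of those of genes called lower. TATTTAT, also on both strands, was in 2.82%, 3.11% and 2.77%. A match or its absence in this window says nothing of binding. None of the 18 promoters found for the 12 largest rises and 12 largest falls, those of Foxp1 included, held either sequence. For context, the promoters with a match are shown for the genes whose values are given here library by library, those of called genes first. They are printed 5′ to 3′ on the gene's strand, with the match in capitals; TGTTTAC on the opposite strand reads GTAAACA, and TATTTAT reads ATAAATA.
Cckbr, chr7:105425481-105425730, plus strand, GRCm38.p6: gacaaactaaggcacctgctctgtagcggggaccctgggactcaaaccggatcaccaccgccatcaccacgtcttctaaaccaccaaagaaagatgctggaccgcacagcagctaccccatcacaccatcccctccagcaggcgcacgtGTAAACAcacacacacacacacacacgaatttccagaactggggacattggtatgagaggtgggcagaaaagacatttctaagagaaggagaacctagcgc
Nr4a2, chr2:57124004-57124253, minus strand, GRCm38.p6: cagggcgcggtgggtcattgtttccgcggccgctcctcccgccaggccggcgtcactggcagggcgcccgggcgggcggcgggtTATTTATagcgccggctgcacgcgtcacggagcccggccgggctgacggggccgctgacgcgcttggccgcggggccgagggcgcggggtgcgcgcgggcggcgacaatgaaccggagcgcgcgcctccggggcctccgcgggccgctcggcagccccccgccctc
Egr2, the first of 3 overlapping windows, chr10:67537619-67537868, plus strand, GRCm38.p6: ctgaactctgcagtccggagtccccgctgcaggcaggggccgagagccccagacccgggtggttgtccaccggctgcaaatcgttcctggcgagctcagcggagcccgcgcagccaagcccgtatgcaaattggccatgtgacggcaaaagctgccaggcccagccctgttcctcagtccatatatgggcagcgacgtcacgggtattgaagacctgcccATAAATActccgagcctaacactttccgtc
Esrrg, first start site, chr1:187608756-187609005, plus strand, GRCm38.p6: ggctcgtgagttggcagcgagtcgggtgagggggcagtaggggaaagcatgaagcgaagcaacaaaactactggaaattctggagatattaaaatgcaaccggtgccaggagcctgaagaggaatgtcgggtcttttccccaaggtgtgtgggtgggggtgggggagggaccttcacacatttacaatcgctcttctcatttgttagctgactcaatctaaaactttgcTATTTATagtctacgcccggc
Esrrg, second start site, chr1:187651508-187651757, plus strand, GRCm38.p6: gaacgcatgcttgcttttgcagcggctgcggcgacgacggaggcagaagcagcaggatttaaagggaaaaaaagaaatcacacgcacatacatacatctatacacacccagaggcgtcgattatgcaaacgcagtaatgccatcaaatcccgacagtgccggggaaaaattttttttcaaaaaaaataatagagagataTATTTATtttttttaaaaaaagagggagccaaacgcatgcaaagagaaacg
Slitrk6, chr14:110755150-110755399, minus strand, GRCm38.p6: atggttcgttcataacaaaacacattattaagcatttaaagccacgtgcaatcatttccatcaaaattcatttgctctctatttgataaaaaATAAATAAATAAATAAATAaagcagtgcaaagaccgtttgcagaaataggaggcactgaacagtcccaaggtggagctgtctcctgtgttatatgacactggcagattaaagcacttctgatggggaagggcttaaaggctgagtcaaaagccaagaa
Cckbr, Nr4a2 and Egr2 rose in cortex and Esrrg fell. Slitrk6, an adhesion gene near the detection limit, was at 1.39, 0.443, 2.12 and 1.45 CPM in controls and 3.32, 2.57, 1.10 and 3.27 CPM in knockouts and did not pass (log2 fold change 0.74, SE 0.32, limma adjusted p = 0.15), with overlapping groups.

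The genes beside Foxp1 on chromosome 6 were counted as well. Of the 10 nearest tested genes on each side, within 9.75 Mb, 9 were called, 8 of them higher, against 13.5% of all genes, and the 20 ranged from -0.24 to 1.57. Gm765, the nearest tested gene on one side, was at 10.2, 13.7, 16.3 and 17.7 CPM in controls and 54.2, 38.97, 40.6 and 39.6 CPM in knockouts (log2 fold change 1.57, SE 0.14, limma adjusted p = 9.1e-07). Fam19a1, Chl1 and Cntn6 rose by 0.82, 0.59 and 0.80, and Arl6ip5 and Pdzrn3 by 0.28 and 0.38. Gpr27 and Rybp rose too, but each lost its call without control DJ6, control DJ7 or knockout DJ4. Rybp lost it also without control DJ3 or knockout DJ5. The limma adjusted p without 1 library was up to 0.079 for Gpr27 and 0.11 for Rybp. Tmf1 fell by 0.24, and Eif4e3, whose annotated span overlaps that of Gpr27, was at 0.09 and did not pass. Chl1 and Cntn6 encode neural adhesion proteins of the immunoglobulin superfamily.

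The cortical changes were partly shared with hippocampus, which was sampled with its own 4 controls and 4 knockouts. Of 13899 genes tested there 192 were called (1.38%), 92 higher (0.662%) and 100 lower (0.719%). Of the genes tested in both, 82 were called in both: 35 higher in both, 29 lower in both, 16 higher in cortex and lower in hippocampus, and 2 the reverse. These are 44.1% of the hippocampal calls and 4.46% of the cortical ones. Of the cortical calls 72.2% had the same sign in hippocampus, against 61.5% of all genes, and across genes, which are not independent replicates, the Pearson correlation of the 2 fold changes was 0.29 over all and 0.45 over cortical calls. A test of the difference between the effects over all 16 libraries called 378 of 13881 genes (2.72%), the cortical effect being above the hippocampal one in 215 (1.55%) and below in 163 (1.17%). Of the cortical calls 289 were among them, from 8.53% of those under 0.3 on the log2 scale to 37.1% of those over 1. That count of 378 rested in part on single libraries, at 699 without hippocampal control DJ17 and 248 without hippocampal control DJ20.

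Lipoprotein lipase, Lpl, which releases fatty acids from lipoproteins, changed in opposite directions in the regions. In cortex it was at 35.5, 29.3, 35.9 and 28.02 CPM in controls and 121, 96.3, 82.3 and 96.2 CPM in knockouts (log2 fold change 1.60, SE 0.11, limma adjusted p = 3.2e-08). In hippocampus it went from 120.1 ± 13.9 CPM in controls to 48.4 ± 4.92 CPM in knockouts (SD, n = 4), a fall (log2 fold change -1.30, SE 0.09, limma adjusted p = 6.7e-05), and the difference of the effects was 2.90 (limma, adjusted p = 9.8e-10). Ndst4, an enzyme of heparan sulfate synthesis, was at 4.73, 3.43, 15.3 and 12.8 CPM in controls and 25.8, 39.2, 20.3 and 13.7 CPM in knockouts in cortex (log2 fold change 1.54, SE 0.36, limma adjusted p = 0.0067), with overlapping groups, and its hippocampal change was -1.44 (difference 2.98, limma adjusted p = 0.0012). Plk2 and Ptgs2, both activity-regulated, rose in cortex and fell in hippocampus, by 0.53 and 0.74 there, with differences of 1.06 and 1.41 (limma, adjusted p = 2.6e-06 and 5.3e-05). Vgll3 had the widest gap, falling in cortex at a difference of -3.92, while its hippocampal change of 2.48 did not pass (adjusted p = 0.079, with limma). Hpse fell by 0.84 in cortex and rose by 1.26 in hippocampus, and Calb2 rose in both, by 0.71 in cortex and 2.64 in hippocampus, a difference of -1.93. The cortical call of Hpse was lost without any 1 of 6 libraries and that of Calb2 without any 1 of 7, with limma adjusted p of up to 0.085 (without knockout DJ5) and 0.15 (without knockout DJ2). Bace2 and Slc9a2 passed in hippocampus, at 1.36 and -1.78, and not in cortex, at -0.69 and 0.38, and their effects differed by -2.06 and 2.16. Olfr78, Myl4, Deptor, Kcnab3, Rorb and Qrfpr, all called in cortex, did not pass in hippocampus, at -0.24 to 0.36 there, and their effects differed by 1.29 to 2.19 in size. Glra3 and Esr1 did not pass in hippocampus either, at 0.81 and 0.38, but for these the difference did not pass (limma, adjusted p = 0.13 and 0.12). Pkd2l1 rose in both regions, by 2.87 in hippocampus (limma, adjusted p = 0.00048).

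**Figure D5:**
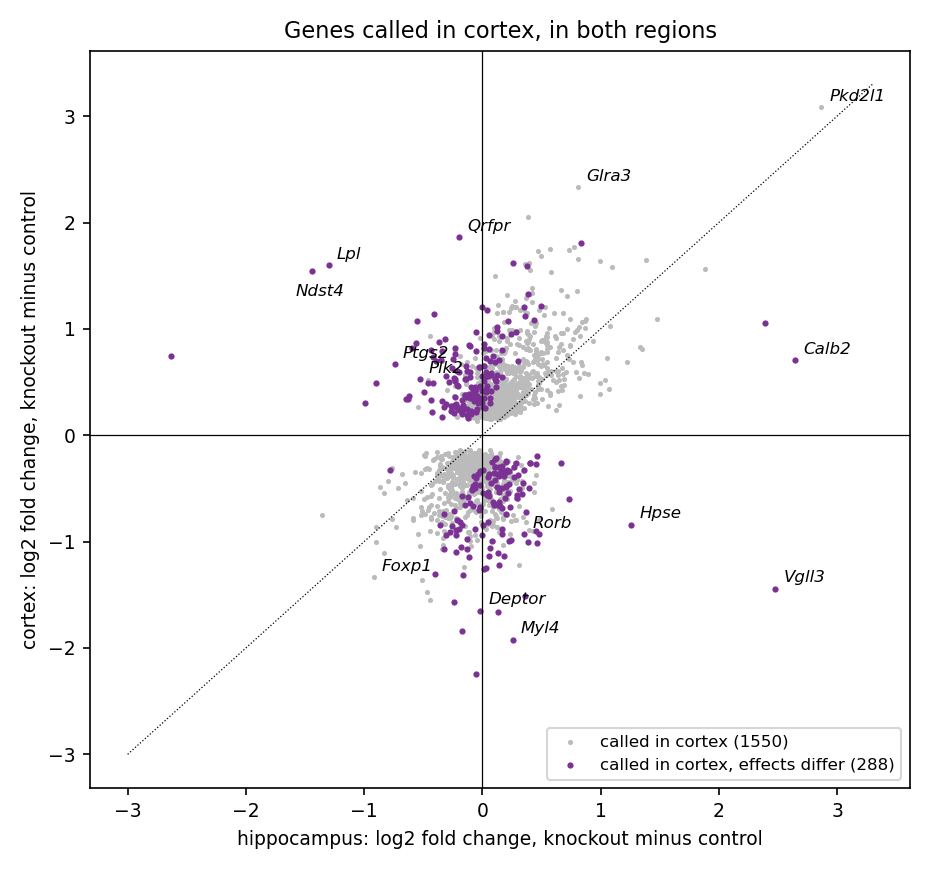
Genes called in cortex and tested in hippocampus, with the hippocampal log2 fold change on the x axis and the cortical one on the y axis; purple points are the genes whose effects differ between regions by the interaction test, and the dotted line marks equal effects. Lpl and Ndst4 lie in the upper left quadrant, higher in cortex and lower in hippocampus, and Vgll3 and Hpse in the lower right.

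The authors' deposited table for cortex lists 874 genes, 418 higher and 456 lower, each changed by 0.30 or more on the log2 scale in either direction, with an adjusted p of at most 0.0049 in that table. Of these 854 (97.7%) were called here, all 874 had the same direction, and their fold changes correlated at 0.99 across genes. The listed genes are 46.2% of the calls here, and 499 of the 993 called genes not listed differed by less than 0.3 on the log2 scale. A deposited list of genes from a heterozygous Foxp1 knockout, whose tissue and age are not given here, was also read against the cortex. Of its 576 tested genes listed as higher, 127 were higher and 53 lower here, and of its 677 listed as lower, 125 were higher and 94 lower. Both shares called, 31.3% and 32.3%, exceed the 13.5% of all genes, and both lists held calls in each direction. Genes listed as higher leaned up here, at a median of 0.11 against 0.03 over all genes. Those listed as lower did not lean down, at a median of 0.02. The study's autism-linked genes were chosen on these samples, 48 called higher and 36 of 37 called lower here, and so give no independent evidence of direction. They include Scn1a, Snap25, Pvalb, Reln and Bdnf.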

How the data were processed

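Cortex and hippocampus were profiled by poly(A) RNA sequencing, and the 8 cortical libraries carry the results. Reads were aligned and counted with STAR, HTSeq and edgeR on mm10/GRCm38, per the submitters' processing notes, with no versions given. The authors deposited 1 table of counts per 1000000 reads (CPM), whose columns each sum to 1000000 and whose values gave whole reads within 0.001 read. For their own gene list the authors also deposited the log2 fold change and adjusted p-value of each gene, used as such. No column was left unmapped. The 13 mitochondrial genes stand at 0 in every library.

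The main test was limma 3.58.1 (R 4.3.3) with a mean-variance trend on log2(CPM + 0.5), for genes averaging 0.5 CPM or more, with Benjamini-Hochberg adjustment over all genes tested. The pseudocount understates the fold changes of low genes. The difference between regions was an interaction contrast over 16 libraries. edgeR 4.0.16 on the recovered reads was an alternative, with other scalings, pseudocounts, filters and each library left out. The limma code was tested on simulated data.

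The genes, lists and tests were chosen with earlier results of these data known. Named genes are the FOXP family and the 12 largest rises and falls with at least 1 CPM and no overlap. The 8 largest each way by CPM, under the same limits, and up to 4 called members of each list by p were added. The 6 largest region differences each way and called neighbours of Foxp1 complete the rule. A few genes this rule chose are not reported here. All other genes named were chosen after their values were seen. Lists are described by counts and, for most, the median, read against all genes. The design text calls the replicates independent. Cortical and hippocampal libraries share no control, and whether they come from the same mice is not stated in the sources used here.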

Additional observations from a re-analysis of the deposited data

Results flagged for a closer look

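For 35 of 520 groups of 4 libraries, 1 library stood apart from the other 3 (Dixon's 95% criterion for the gap to the nearest library), and chance gives about 1 in 20. Knockout DJ1 did so 8 times, control DJ3 and knockout DJ4 7 times each. Knockout DJ4 was the highest of its group for Atp2b4 at 708 CPM, Dusp4 at 16.4 CPM, Esrrg at 44.5 CPM, Grin3a at 95.9 CPM and Nefh at 52.8 CPM. Control DJ6 was the lowest of its group for Camk2d at 131 CPM, Cntn6 at 29.8 CPM and Gucy1a3 at 218 CPM. Control DJ3 was the highest of its group for Nr4a3 at 84.1 CPM and Rapgef4 at 1479 CPM, and the lowest of its group for Camk4 at 1009 CPM, Grin2b at 1355 CPM, Rgs2 at 41.2 CPM and Scn1a at 465 CPM. Knockout DJ2 was the highest of its group for Pkd1l3 at 2.70 CPM, and the lowest of its group for Cntn6 at 54.3 CPM. Knockout DJ1 was the highest of its group for Cplx2 at 2322 CPM, Dpysl3 at 72.8 CPM, Egr1 at 282 CPM and Gm765 at 54.2 CPM, and the lowest of its group for Hapln4 at 51.6 CPM and Htr2a at 14.05 CPM. Knockout DJ5 was the highest of its group for Ermn at 91.7 CPM and Qrfpr at 10.3 CPM, and the lowest of its group for Grm2 at 4.47 CPM and Nr4a3 at 73.98 CPM. Control DJ8 was the lowest of its group for Etv1 at 89.6 CPM. Control DJ7 was the lowest of its group for Pou3f1 at 23.04 CPM. Of the marker and gene lists, choroid plexus and ependymal markers stood apart in knockout DJ1, at 1.889, oligodendrocyte and myelin markers stood apart in knockout DJ4, at -0.770, microglia and macrophage markers stood apart in control DJ3, at 0.160, vesicle release machinery stood apart in control DJ6, at 0.025, translation factors stood apart in knockout DJ1, at 0.115, aminoacyl-tRNA synthetases stood apart in knockout DJ4, at -0.070 and glycolysis enzymes stood apart in knockout DJ5, at -0.048, as the mean log2 level against the control mean.

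The cortical and hippocampal effects differed for 74 of the genes named, by the interaction contrast of limma at an adjusted p below 0.05. The values that follow are the cortical minus the hippocampal log2 fold change. Among receptors, channels and transporters the cortical effect lay above the hippocampal one for Slc9a2 (2.16), Qrfpr (2.06), Npy2r (1.13), Scn3b (0.99), Htr2c (0.85), Scn3a (0.41), Grm5 (0.38) and Gria3 (0.28). Among receptors, channels and transporters the cortical effect lay below the hippocampal one for Olfr78 (-2.19), Rxfp2 (-1.80), Htr2a (-1.33), Kcnab3 (-1.33), Gfra2 (-1.16), Grm2 (-0.90), Cacna1i (-0.68), Abcd2 (-0.67), Scn1a (-0.63), Kcnj10 (-0.59) and Kcna2 (-0.42). Among signalling, vesicle and peptide genes the cortical effect lay above the hippocampal one for Dusp4 (1.63), Sorcs3 (1.41), Ptgs2 (1.41), Dgkg (1.24), Fst (1.21), Cpne6 (1.21), Plk2 (1.06), Doc2b (0.94), Bdnf (0.78), Pde2a (0.52) and Gucy1b3 (0.49). Among signalling, vesicle and peptide genes the cortical effect lay below the hippocampal one for Calb2 (-1.93), Deptor (-1.63), Bmp2 (-0.94), Pvalb (-0.88), Sorcs1 (-0.86), Plcxd2 (-0.82), Chga (-0.76), Vamp1 (-0.67), Npy (-0.56), S100b (-0.53), Rapgef4 (-0.47) and Camk2g (-0.43). Among adhesion, matrix and cytoskeletal genes the cortical effect lay above the hippocampal one for Ndst4 (2.98), Slitrk6 (1.71), Itga4 (1.36), Cdhr1 (0.97), Lrrtm4 (0.96), Ddn (0.81), Chl1 (0.79), Pcdh8 (0.72), Pcdh19 (0.65) and Nlgn1 (0.31). Among adhesion, matrix and cytoskeletal genes the cortical effect lay below the hippocampal one for Myl4 (-2.18), Hpse (-2.10), Whrn (-0.93), Pcdh7 (-0.86), Nefh (-0.74), Sulf2 (-0.68), Nefm (-0.63) and Hapln4 (-0.48). Among transcription factors the cortical effect lay above the hippocampal one for Nr4a3 (0.94), Bhlhe22 (0.90), Rfx3 (0.85) and Sox11 (0.40). Among transcription factors the cortical effect lay below the hippocampal one for Vgll3 (-3.92), Rorb (-1.29), Etv1 (-0.93) and Satb1 (-0.51). Among the other genes the cortical effect lay above the hippocampal one for Lpl (2.90), Wfs1 (1.14) and Fam19a1 (1.05). Among the other genes the cortical effect lay below the hippocampal one for Bace2 (-2.06), Prr16 (-1.87) and Hsbp1l1 (-1.67).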

How the results depend on the processing

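The count of genes called in cortex was 1383 to 1933 when 1 library was left out, and 1439 to 1948 under the other scalings, filters, pseudocounts, tests and sample choices, edgeR giving 1794. It was 1308 with a minimum absolute log2 fold change of 0.3 and 116 with one of 1, 253 with the myelin level as a covariate and 963 with the striatal level. The Foxp1 change was -1.26 to -1.46 without 1 library. The region difference was called for 248 to 699 genes without 1 library, and 520 with the replicate block that pairs cortical and hippocampal libraries 14 numbers apart. The labels give no shared number, but libraries 14 apart carry the same genotype label in every pair. Deviations correlated at -0.01 to 0.18 in these pairs, positive in all but DJ7 with DJ21. Between the other cortical and hippocampal libraries of the same genotype the correlations were -0.19 to 0.18. Whether the pairs share a mouse cannot be told from this, and the main test did not treat them as paired. No paired analysis was possible within cortex because its groups share no replicate number. Of the 186 named genes called in cortex, 176 kept the call whichever library was left out, while 94 lost it with the myelin covariate, 32 with the striatal covariate and 19 in a fit of all 16 libraries. With a covariate, Drd2 reversed to -0.11 (striatal) and Enc1 and Rybp to -0.017 and -0.013 (myelin), and the cause was not tested. The covariates are the means of the myelin and striatal lists, and named members of these lists, Drd2 among them, are counted here. Snap25 and Slc1a2 came out at 0 after quantile normalization, which gives a gene of the same rank in every library the same value. At 7075560 to 9164571 reads a library, genes of 0.5 to 1 CPM were seldom called, 2.66% of 713.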
